A study of Mus musculus with 4 samples.

Results

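The 38 genes described here encode enzymes that make serine, one-carbon units, asparagine, proline and other amino acids, 5 regulators and effectors of the amino acid stress response, and 18 cytosolic aminoacyl-tRNA synthetases. They were chosen by name from the deposited count table, as genes of the kind controlled by the transcription factor ATF4, and Mars was found under its newer symbol Mars1. All 38 were present among 55401 rows, and all 38 were among the 14180 genes with enough reads to be tested. Poly(A) RNA was sequenced from splenic B cells of C57BL/6 mice, purified with anti-CD43 microbeads and stimulated for 36 h through CD40 (antibody at 1 µg/ml) and IgM (antibody at 10 µg/ml). Wild type was represented by 2 libraries, and 2 others carried the label of an Adar1 conditional knockout in B cells (cKO). Adar1 encodes an adenosine deaminase that edits RNA. The sources used here do not give the age of the mice, the Cre driver or the deleted part of Adar1. Nor do they say whether the libraries of a genotype were made from different animals or cultures, so the p-values reflect only how far these libraries scatter, which may be technical.

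Activated lymphocytes grow before they divide, and they need serine for protein, for lipid head groups and as the main donor of one-carbon units. Serine is made from a glycolytic intermediate by PHGDH, PSAT1 and PSPH, and serine hydroxymethyltransferases pass its side-chain carbon to folate, in mitochondria or in the cytosol. The carbon then serves purine and thymidylate synthesis. Aminoacyl-tRNA synthetases join each amino acid to its tRNA. When amino acids run short or another stress phosphorylates the initiation factor eIF2, translation of ATF4 rises, and ATF4 induces many genes of these pathways. MYC and mTORC1 signalling also raise them in growing cells.

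Total counts lay between 17327480 and 19669651 per library, and libraries of a genotype differed by more than sampling noise, so that each was kept as a replicate. Levels are counts scaled to a common library size by TMM (CPM). Differences are log2 changes, cKO-labelled minus wild type, ± SE, with 2 libraries per genotype, from edgeR's quasi-likelihood test. A gene was called where its p, adjusted by Benjamini-Hochberg over all tested genes, was under 0.05. Each SE was obtained from the test statistic and is no direct estimate of the spread between libraries. Adar, the targeted gene, stood at 137 and 149.97 CPM in wild type and at 218 and 233 CPM in the libraries labelled cKO. Its gene-level count was thus higher where the label names a deletion (0.65 ± 0.063, adjusted p = 3.39e-08 by edgeR). A gene-level count does not show whether a part is missing, and every direction below rests on the label. The B-cell markers Cd79a, Cd79b, Ms4a1 and Pax5 were all expressed.

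The genes of amino acid synthesis and tRNA charging were mostly lower in the cKO-labelled libraries. Of the 38 genes, 22 were called lower and 0 higher, whereas 9.54% of all tested genes were called lower and 12.2% higher. By DESeq2 21 were lower and 0 higher. The 38 were chosen with earlier results of these data known, so their share called lower may in part reflect the choice. Of the 4 genes with a positive change in edgeR's fit, 1 (Rars) had an unadjusted p under 0.05. The median change over the 38 was -0.24, against -0.0058 over all tested genes. Among the 2379 tested genes whose mean level reached 100 CPM, 16.6% were called lower. The genotypes did not overlap for 32 of the 38, with the cKO-labelled libraries below wild type for 29 and above for 3. Over all tested genes 28.7% lay below without overlap and 29.2% above. Together the 38 genes held 1.10% and 1.07% of all counts in the wild-type libraries, and 0.930% and 0.888% in those labelled cKO. In bulk RNA, fewer cells with high levels and less RNA per cell cannot be told apart.

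**Figure D1:**
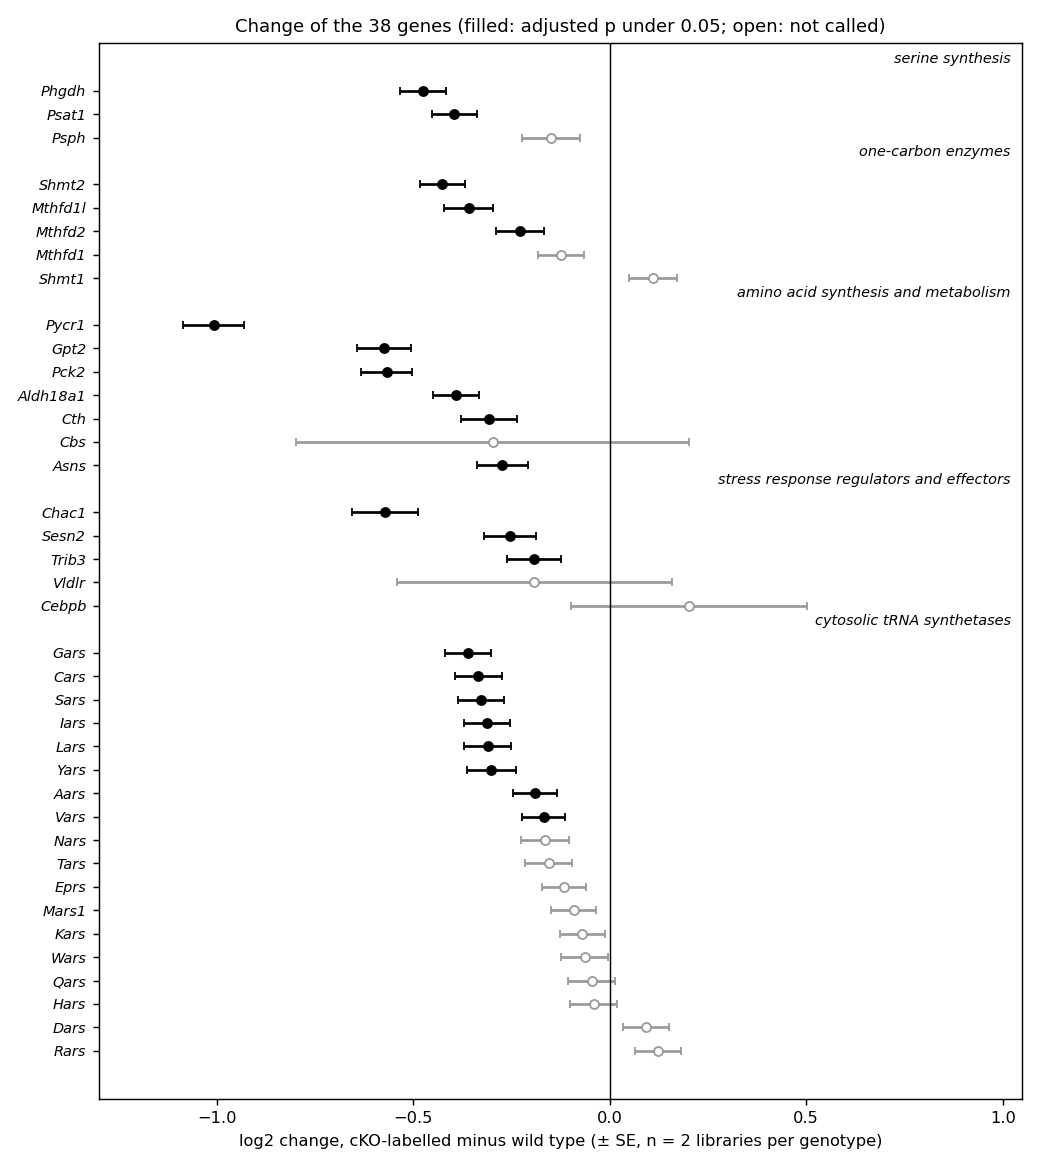
Log2 change of each of the 38 genes, cKO-labelled minus wild type, with its SE (n = 2 libraries per genotype), grouped by role. Filled points mark the 22 genes called lower by edgeR (adjusted p below 0.05), and no gene was called higher. Pycr1 stands furthest to the left at -1.01.

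Promoter windows of 300 bases, from 250 before to 50 after the RefSeq start on GRCm38.p6, were available for 30 of the 38 genes. Cth, Cars, Hars, Lars, Nars, Rars, Vars and Wars had no entry. The C/EBP-ATF response element, searched as TGATGNAA on both strands, was present in 11 of the 30 genes and in 4.51% of all 27025 genes with a window. Since the 38 were chosen as genes of the ATF4 type, that share describes the choice. Of the 11, 9 were called lower (Aars, Asns, Chac1, Gars, Iars, Pck2, Pycr1, Trib3 and Yars), and Tars and Vldlr were not called. Of the 19 without a match, 9 were called lower, Phgdh, Psat1 and Shmt2 among them. A match is a run of letters and no measure of binding. The E-box CACGTG, the core site of MYC, was present in 5 of the 30 (Aars, Aldh18a1, Cbs, Iars and Tars) and in 8.09% of all genes. The interferon-stimulated response element, searched as a pair of GAAA with any 2 bases between, was present in 2 (Qars and Vldlr) and in 3.99% of all. No matches of different motifs overlapped in these windows.

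The windows of the 3 genes with a response element and the largest falls, of Asns, and of Tars, which has a match but was not called, are shown 5′ to 3′ on the strand of the gene. Capitals mark the match, on either strand. Pycr1 is chr11:120643699-120643998 (minus strand), Chac1 chr2:119350992-119351291 (plus strand), Pck2 chr14:55540016-55540315 (plus strand), Asns chr6:7693160-7693459 (minus strand) and Tars chr15:11399609-11399908 (minus strand). The letters of Pycr1 and Asns read TGATGCAA and TGATGAAA, and those of Chac1 and Tars share 1 form on the other strand, TTGCATCA.
Pycr1: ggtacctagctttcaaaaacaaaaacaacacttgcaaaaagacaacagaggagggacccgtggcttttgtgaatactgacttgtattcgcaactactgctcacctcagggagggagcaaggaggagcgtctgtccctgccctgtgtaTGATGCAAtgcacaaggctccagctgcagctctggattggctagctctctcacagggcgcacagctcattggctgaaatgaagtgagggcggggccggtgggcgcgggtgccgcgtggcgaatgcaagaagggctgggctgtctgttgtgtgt
Chac1: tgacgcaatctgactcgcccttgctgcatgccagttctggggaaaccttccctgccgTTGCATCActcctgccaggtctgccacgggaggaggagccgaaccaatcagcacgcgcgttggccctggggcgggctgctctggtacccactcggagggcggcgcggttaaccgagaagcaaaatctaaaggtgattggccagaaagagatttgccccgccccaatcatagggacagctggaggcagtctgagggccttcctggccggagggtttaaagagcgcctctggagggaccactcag
Pck2: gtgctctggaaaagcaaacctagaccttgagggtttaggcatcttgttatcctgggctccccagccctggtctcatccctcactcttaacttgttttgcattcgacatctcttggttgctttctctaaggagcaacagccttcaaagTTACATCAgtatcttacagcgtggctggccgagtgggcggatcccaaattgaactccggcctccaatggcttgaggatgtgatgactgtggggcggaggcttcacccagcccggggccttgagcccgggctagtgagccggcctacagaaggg
Asns: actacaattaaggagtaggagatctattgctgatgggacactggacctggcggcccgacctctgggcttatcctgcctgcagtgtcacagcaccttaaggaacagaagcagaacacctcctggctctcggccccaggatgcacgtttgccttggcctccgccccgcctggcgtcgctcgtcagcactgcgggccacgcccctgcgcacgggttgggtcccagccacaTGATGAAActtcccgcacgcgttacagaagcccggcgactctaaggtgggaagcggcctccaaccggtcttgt
Tars: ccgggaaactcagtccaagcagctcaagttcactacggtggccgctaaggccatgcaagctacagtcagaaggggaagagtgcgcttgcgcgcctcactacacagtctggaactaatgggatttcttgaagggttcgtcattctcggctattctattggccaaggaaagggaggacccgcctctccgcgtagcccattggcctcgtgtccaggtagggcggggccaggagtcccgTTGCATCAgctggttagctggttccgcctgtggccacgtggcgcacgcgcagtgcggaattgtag

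Serine synthesis genes fell at its first steps. Phgdh (ENSMUSG00000053398, chromosome 3, 98313170 to 98339990), which encodes the first enzyme of the pathway, stood at 712 and 651 CPM in wild type and at 494 and 486 CPM in the cKO-labelled pair. The groups were well apart, and the cKO-labelled pair lay closer together than the wild-type pair. Phgdh fell by 28.1% (-0.48 ± 0.058, adjusted p = 1.47e-06 by edgeR). Psat1 (ENSMUSG00000024640, chromosome 19, 15904678 to 15947337), the aminotransferase of the next step, stood at 609 and 586 CPM in wild type and at 469.8 and 439 CPM in the others. It fell by 24.0%, again with no overlap (-0.40 ± 0.058, adjusted p = 1.79e-05 by edgeR). Psph, the phosphatase that releases serine, had 103 and 98.0 CPM in wild type and 98.8 and 82.1 CPM in the cKO-labelled pair, so that the groups overlapped. Its change was -0.15 ± 0.074 and was not called (adjusted p = 0.164 by edgeR). Without cKO-labelled library 1 it was -0.29 (adjusted p = 0.00386 by edgeR). Cct6a lies on the opposite strand and shares 452 exonic bases with Psph. The libraries were made with a kit that does not mark strand, so reads of both genes there cannot be told apart.

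Of the one-carbon enzymes among the 38 genes, the mitochondrial Shmt2, Mthfd1l and Mthfd2 were called lower, while the cytosolic Shmt1 and Mthfd1 were not called. Shmt2 (ENSMUSG00000025403, chromosome 10, 127517123 to 127522444), the mitochondrial serine hydroxymethyltransferase, was, with Phgdh, at the top of the 38 genes in level per exonic length. It stood at 906 and 836 CPM in wild type and at 672 and 625 CPM in the cKO-labelled pair, with every cKO-labelled value below both wild-type values. It fell by 25.6% (-0.43 ± 0.058, adjusted p = 6.64e-06 by edgeR). Shmt1, its cytosolic counterpart, had 117 and 110.3 CPM in wild type and 124 and 121 CPM in the others. The cKO-labelled libraries were thus slightly above, and the change of 0.11 ± 0.061 was not called (adjusted p = 0.230 by edgeR). Smcr8 shares 184 exonic bases with Shmt1 on the opposite strand.

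Of the enzymes that carry the folate-bound carbon onward in mitochondria, Mthfd1l and Mthfd2 were both called lower. Mthfd1l (ENSMUSG00000040675, chromosome 10, 3973118 to 4167081), which releases formate, stood at 228 and 225 CPM in wild type and at 186 and 167 CPM in the cKO-labelled pair. Its groups did not overlap, and it fell by 22.0% (-0.36 ± 0.062, adjusted p = 0.000136 by edgeR). Mthfd2 (ENSMUSG00000005667, chromosome 6, 83305691 to 83325908), a dehydrogenase and cyclohydrolase, stood at 365 and 358 CPM against 324 and 293 CPM. It fell by 14.7% (-0.23 ± 0.061, adjusted p = 0.00775 by edgeR). That call rested on cKO-labelled library 2, the lower of its pair, without which the change was -0.16 (adjusted p = 0.131 by edgeR). Mthfd1, the cytosolic enzyme that combines these activities, had 283 and 271 CPM in wild type and 251 and 258 CPM in the others. It lay below wild type without overlap, but by too little to be called (-0.12 ± 0.058, adjusted p = 0.139 by edgeR).

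The balance between compartments was read as a ratio of FPKM, the deposited level corrected for exonic length and library size. Shmt2 stood 9.69 and 9.47 times above Shmt1 in the wild-type libraries, and 6.77 and 6.46 times in the cKO-labelled ones. For Mthfd1l over Mthfd1 the ratios were 0.806 and 0.829 in wild type against 0.742 and 0.648. Both ratios were lower without overlap, for which an exact two-sided permutation test gives p = 0.333, the smallest that 2 against 2 libraries allow. Mthfd2 over Mthfd1 overlapped between genotypes, at 1.64 and 1.68 in wild type and 1.64 and 1.45 in the cKO-labelled libraries. FPKM is not corrected for exon GC content, which was 57.4% for Shmt2 and 49.2% for Shmt1. After each library's trend on exon GC content was removed, Shmt2 changed by -0.32 (-0.43 before) and Shmt1 by 0.10 (0.11 before).

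**Figure D2:**
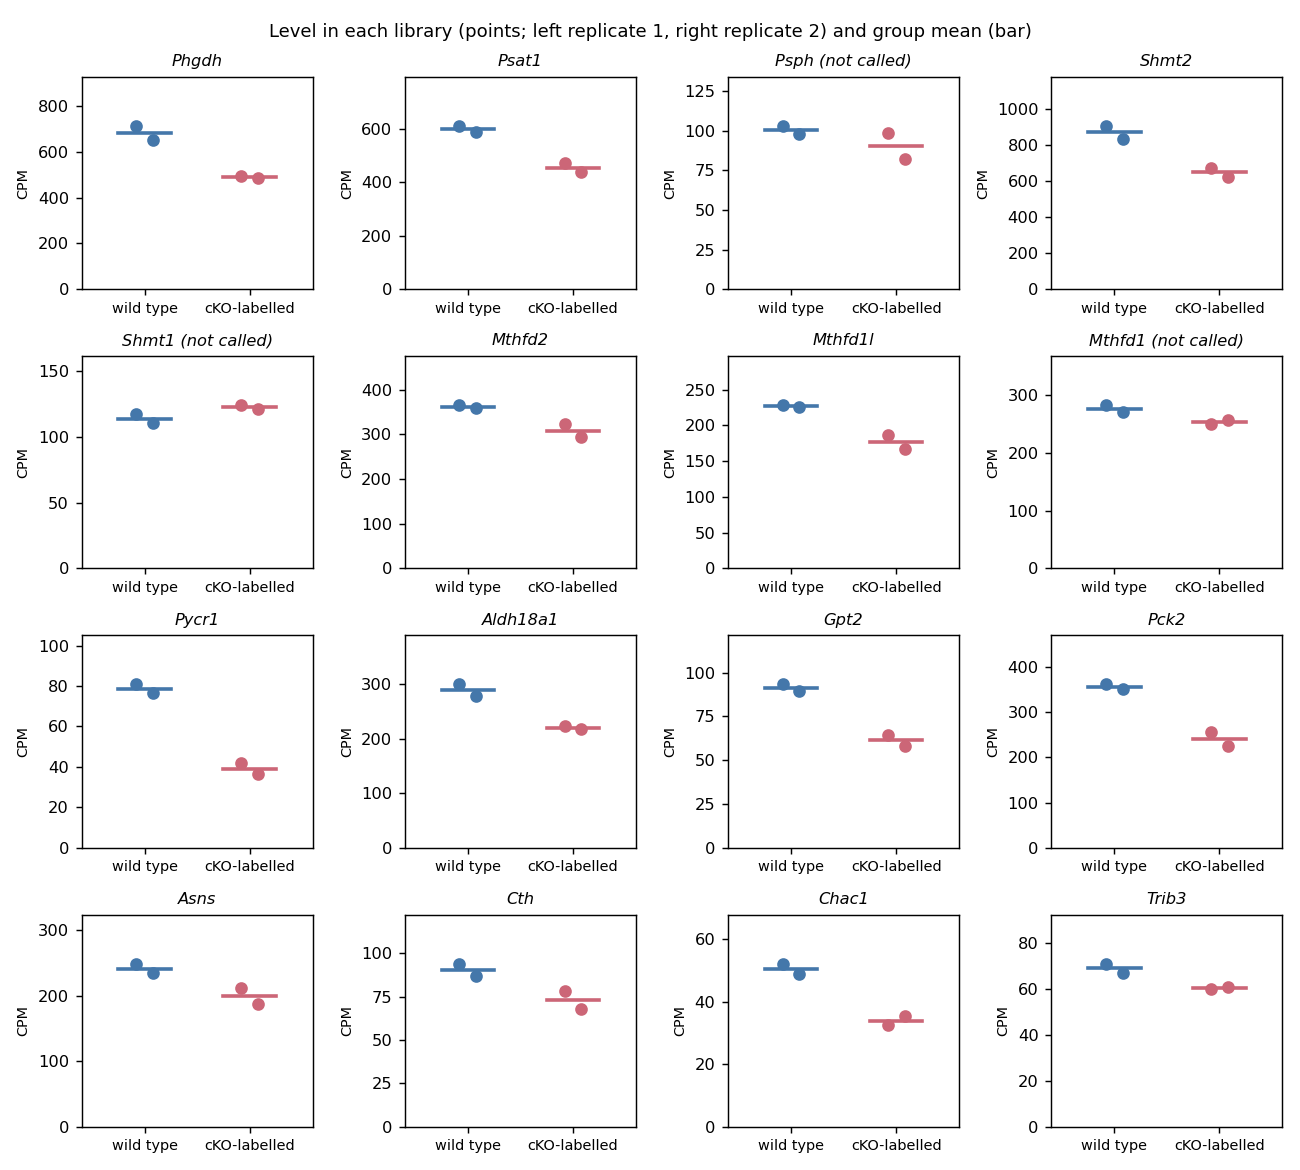
CPM of genes of serine, one-carbon and amino acid metabolism and of the stress response in each library, as points, with the group mean as a bar (2 libraries per genotype, axes from 0). Shmt2 fell from 906 and 836 to 672 and 625 CPM, while the values of Psph overlapped and those of Shmt1 were slightly above wild type.

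Of 22 other folate and one-carbon genes, outside the 38, 21 were tested, 4 were lower (Aldh1l2, Fpgs, Slc19a1 and Ahcy) and 1, the thymidylate synthase gene Tyms, was higher, with a median of -0.14. Aldh1l2, a mitochondrial enzyme that oxidises formyl-folate, stood at 45.2 and 44.0 CPM in wild type and at 28.0 and 24.0 CPM in the others (-0.78 ± 0.094, adjusted p = 1.15e-06 by edgeR). Fpgs, which adds glutamates to folate and keeps it in the cell, changed by -0.45 ± 0.078 and Slc19a1, the reduced folate carrier, by -0.41 ± 0.074. Of 12 genes of purine synthesis, which uses the one-carbon units, 2 were lower and 0 higher, with a median of -0.04. These were Impdh1, an IMP dehydrogenase (-0.82 ± 0.12), and Pfas (-0.21 ± 0.061). The call of Pfas was lost without wild-type library 2 (-0.16, adjusted p = 0.168 by edgeR), without cKO-labelled library 1 (-0.17, adjusted p = 0.116 by edgeR) and after removal of the GC trend.

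Proline synthesis held the largest change of the 38 genes, in Pycr1, whose promoter window holds a response element match. Pycr1 (ENSMUSG00000025140, chromosome 11, 120635712 to 120643769), the mitochondrial reductase that completes proline synthesis, stood at 80.8 and 76.5 CPM in wild type and at 41.9 and 36.3 CPM in the cKO-labelled pair. Both cKO-labelled values were close to 50% of wild type, and the gene fell by 50.3% (-1.01 ± 0.078, adjusted p = 6.64e-10 by edgeR). Aldh18a1 (ENSMUSG00000025007, chromosome 19, 40550257 to 40588463), which catalyses the committed steps from glutamate towards proline, stood at 299.9 and 278 CPM against 223 and 218 CPM. It fell by 23.8% (-0.39 ± 0.059, adjusted p = 2.72e-05 by edgeR).

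Gpt2 and Pck2, which encode mitochondrial enzymes, were both lower. The FPKM ratio of Gpt2 over its cytosolic counterpart Gpt overlapped between genotypes, and a link of the falls to the compartment was not tested. Gpt2 (ENSMUSG00000031700, chromosome 8, 85492576 to 85527560), the mitochondrial alanine aminotransferase, stood at 93.2 and 89.3 CPM in wild type and at 64.2 and 58.3 CPM in the cKO-labelled pair. Pck2 (ENSMUSG00000040618, chromosome 14, 55540266 to 55551242), the mitochondrial phosphoenolpyruvate carboxykinase, stood at 362 and 351 CPM against 256 and 225 CPM. Neither gene overlapped between genotypes. Gpt2 fell by 32.8% (-0.57 ± 0.068, adjusted p = 7.74e-07 by edgeR). Pck2 fell by 32.5% (-0.57 ± 0.064, adjusted p = 3.35e-07 by edgeR).

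Asns (ENSMUSG00000029752, chromosome 6, 7675169 to 7693254), asparagine synthetase, stood at 249 and 234 CPM in wild type and at 212 and 187 CPM in the cKO-labelled pair. Cth (ENSMUSG00000028179, chromosome 3, 157894248 to 157925077), which makes cysteine from cystathionine, stood at 94.0 and 86.9 CPM against 78.0 and 68.0 CPM. In both, cKO-labelled library 2 was the lowest of the 4. Asns changed by -0.27 ± 0.065 (adjusted p = 0.00319 by edgeR) and Cth by -0.31 ± 0.071 (adjusted p = 0.00270 by edgeR). Without cKO-labelled library 2 both calls were lost, with changes of -0.19 (adjusted p = 0.0769 by edgeR) and -0.21 (adjusted p = 0.0524 by edgeR). Cbs, the enzyme before Cth in transsulfuration, was barely present, with 19 and 39 reads counted in wild type and 35 and 10 in the cKO-labelled pair. At that depth no change was detectable (-0.30 ± 0.50).

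Of 14 other amino acid synthesis genes, 2 were lower, Bcat1 among them, and 2 higher (Arg2 and Glul), with a median of -0.07. Bcat1, the cytosolic branched-chain aminotransferase, stood at 277 and 268 CPM in wild type and at 199.7 and 190.2 CPM in the others (-0.48 ± 0.059). Arg2, a mitochondrial arginase, was higher but rested on few reads, at 0.580 and 0.407 CPM against 2.33 and 2.29 CPM.

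Of the 5 regulators and effectors of the stress response, 3 were lower (Chac1, Sesn2 and Trib3) and 0 higher, with a median of -0.19. Chac1 (ENSMUSG00000027313, chromosome 2, 119351229 to 119354381), which degrades glutathione and is induced through ATF4, stood at 52.2 and 49.0 CPM in wild type and at 32.7 and 35.3 CPM in the cKO-labelled pair. It fell by 32.8%, with no overlap (-0.57 ± 0.084, adjusted p = 1.60e-05 by edgeR). Sesn2, a sestrin that restrains mTORC1, had 144 and 127 CPM in wild type and 111 and 116 CPM in the others (-0.25 ± 0.066, adjusted p = 0.00646 by edgeR). After each library's trend on exon GC content was removed its change was -0.14 (adjusted p = 0.135 by edgeR), and without wild-type library 1, the higher of its pair, it was -0.17 (adjusted p = 0.160 by edgeR).

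Trib3, a pseudokinase that dampens ATF4 activity, was the weakest call of the 22. It had 70.9 and 66.9 CPM in wild type and 59.8 and 60.7 CPM in the cKO-labelled pair (-0.19 ± 0.068, adjusted p = 0.0469 by edgeR). The call was lost in 8 of 11 alternative settings, leaving out any 1 library among them, and the change was -0.08 after removal of the GC trend. Cebpb, the transcription factor C/EBPβ, was scattered, with 3.42 and 9.76 CPM in wild type and 9.33 and 6.02 CPM in the others (0.20 ± 0.30). Without wild-type library 2 its change was 1.16 (adjusted p = 0.00162 by edgeR), so that 1 library decides whether it is called, and without wild-type library 1 it was -0.35 and not called (adjusted p = 0.345 by edgeR). Tmem189 shares 312 exonic bases with Cebpb on the opposite strand and stands at a higher level. Vldlr, a lipoprotein receptor, had only 54 and 45 reads counted in wild type and 54 and 30 in the cKO-labelled pair (-0.19 ± 0.35).

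Upstream of these genes, the transcripts of the stress pathway went both ways. Atf4 itself stood at 775 and 725 CPM in wild type and at 610.4 and 589 CPM in the cKO-labelled pair (-0.32 ± 0.057, adjusted p = 0.000153 by edgeR). Eif2ak2, which encodes the eIF2 kinase PKR that senses double-stranded RNA, stood at 56.6 and 60.0 CPM against 151 and 150.02 CPM (1.37 ± 0.063, adjusted p = 5.91e-14 by edgeR). Thus the kinase transcript was higher and that of the factor lower in the same libraries, and the protein and its phosphorylation were not measured. Of 13 tested kinases, factors and phosphatase subunits of this pathway, 3 were higher (Eif2ak2, Eif2s1 and Ppp1r15a) and 2 lower (Atf4 and Atf5), with a median of 0.03. Atf5, a related factor, changed by -0.33 ± 0.071 (adjusted p = 0.00148 by edgeR) and by -0.19 after removal of the GC trend, when it was not called (adjusted p = 0.0751 by edgeR).

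Of 21 other ATF4 target genes tested, 11 were lower and 3 higher (Slc7a11, Sqstm1 and Sesn3), with a median of -0.22. Nars2, which was not called, is counted here and again among the mitochondrial synthetases below. Slc7a11 rested on few reads, 41 and 46 in wild type and 95 and 105 in the cKO-labelled pair. Eif4ebp1, an inhibitor of cap-dependent translation, stood at 206 and 189 CPM in wild type and at 129 and 128 CPM in the cKO-labelled pair (-0.62 ± 0.062). Slc6a9, a glycine transporter, changed by -0.75 ± 0.092. Sqstm1, an autophagy receptor, went the other way, from 229 and 210.03 CPM to 308 and 346 CPM (0.58 ± 0.065).

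**Figure D3:**
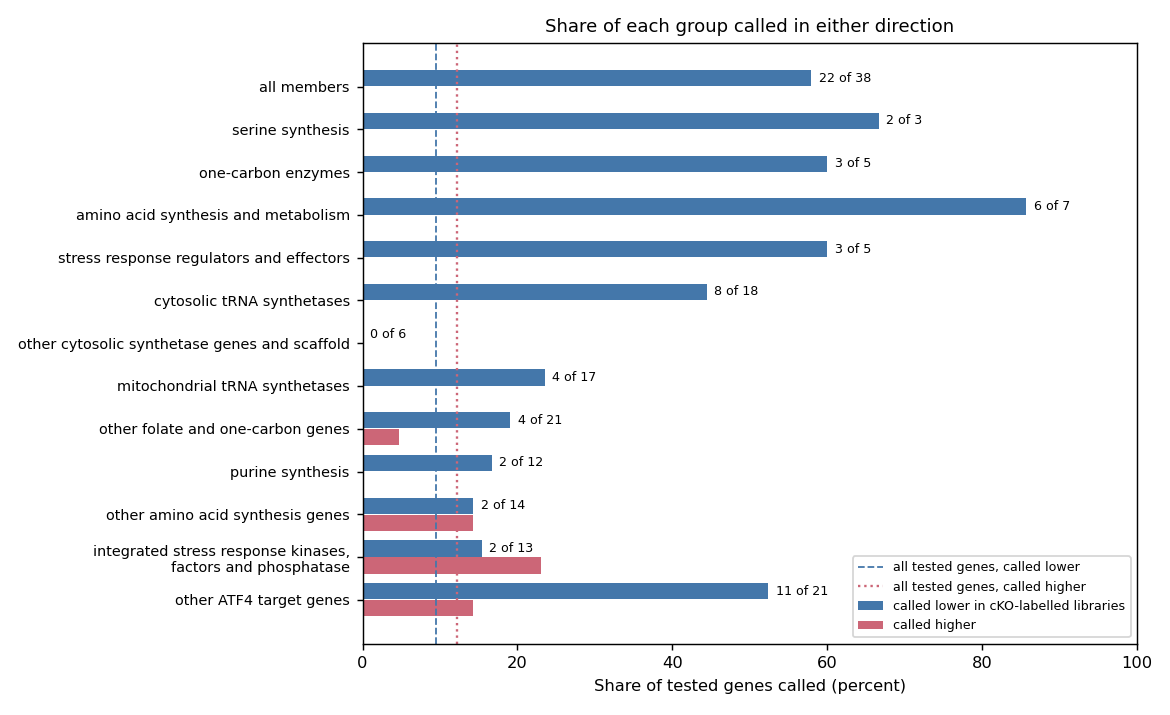
Percent of tested genes called lower (blue) or higher (red) in the cKO-labelled libraries for the 38 genes ("all members"), their groups and related lists. The dashed and dotted lines mark 9.54% and 12.2%, the shares over all tested genes, and the printed counts are genes called lower of those tested.

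The cytosolic tRNA synthetases were called in part. Of 18 genes, 8 were lower and 0 higher, with a median of -0.16 and a range from -0.36 to 0.12. Gars (ENSMUSG00000029777, chromosome 6, 55038007 to 55079500), the glycyl-tRNA synthetase, had the largest fall, from 547 and 552 CPM in wild type to 446 and 409.8 CPM in the cKO-labelled pair. Its groups were well apart, and it fell by 22.1% (-0.36 ± 0.059, adjusted p = 6.66e-05 by edgeR). Cars (cysteine, ENSMUSG00000010755, chromosome 7, 143557230 to 143600090) stood at 237 and 226 CPM against 183 and 184 CPM, and fell by 20.7% (adjusted p = 0.000153 by edgeR). Sars (serine, ENSMUSG00000068739, chromosome 3, 108424865 to 108445209) stood at 416 and 388 CPM against 326 and 315 CPM, and fell by 20.3% (adjusted p = 0.000213 by edgeR).

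The synthetases for isoleucine, leucine and tyrosine fell to a like extent. Iars stood at 498 and 468 CPM in wild type and at 394 and 384 CPM in the cKO-labelled pair (-0.31 ± 0.058). Lars stood at 375 and 351 CPM against 298 and 287 CPM (-0.31 ± 0.059), and Yars at 262 and 248 CPM against 216 and 197 CPM (-0.30 ± 0.062). None of the 3 overlapped between genotypes. Aars (alanine) and Vars (valine) were called with smaller changes. Aars stood at 493 and 479 CPM in wild type and at 427 and 426 CPM in the others (-0.19 ± 0.056), and Vars at 796 and 753 CPM against 683 and 696 CPM (-0.17 ± 0.055). After removal of the GC trend neither was called, with changes of -0.10 (adjusted p = 0.215 by edgeR) for Aars and -0.03 (adjusted p = 0.737 by edgeR) for Vars. Without wild-type library 1, the higher of its pair in both genes, they were not called either (-0.17 and -0.13). Aars lost its call without cKO-labelled library 2 as well (-0.19, adjusted p = 0.0561 by edgeR), and Vars without cKO-labelled library 1 (-0.16, adjusted p = 0.0888 by edgeR). Exosc6, listed at 0 in every library, shares 1326 exonic bases with Aars on the same strand.

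The remaining 10 synthetases were not called. Nars (asparagine) stood at 489.9 and 472 CPM in wild type and at 450.1 and 407 CPM in the cKO-labelled pair (-0.17 ± 0.060, adjusted p = 0.0548 by edgeR). Tars (threonine), with the same letters in its promoter window as Chac1, stood at 317 and 319 CPM against 297 and 274 CPM (-0.16 ± 0.059, adjusted p = 0.0643 by edgeR). Both were just outside the threshold, and each was called in 5 of 11 alternative settings. Eprs, the joint synthetase for glutamate and proline, had 551 and 564 CPM in wild type and 526 and 503 CPM in the others (-0.12 ± 0.056), and it was called after removal of the GC trend (-0.19, adjusted p = 0.0120 by edgeR). Dars (aspartate, 0.09 ± 0.058) and Rars (arginine, 0.12 ± 0.059) were the only synthetases with positive changes, and both lay above wild type without overlap. The change of Dars was -0.0026 after removal of the GC trend, so its direction depends on that step. Hars (-0.04 ± 0.060), Kars (-0.07 ± 0.057), Mars1 (-0.09 ± 0.057), Qars (-0.05 ± 0.060) and Wars (-0.06 ± 0.059), for histidine, lysine, methionine, glutamine and tryptophan, lay closer to no change. Hars shares 195 exonic bases with its mitochondrial neighbour Hars2 and Mars1 shares 68 with the stress gene Ddit3, in each case on the opposite strand.

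Exon GC content differed between the synthetases that were called and those that were not, with a median of 52.9% over the 8 called and of 47.2% over the other 10. After removal of the GC trend Aars and Vars were no longer called, and Eprs, Nars and Tars were called lower. A further description was made after the values were seen. Of the 8 genes whose products form the multi-synthetase complex (Eprs, Iars, Lars, Mars1, Qars, Rars, Kars and Dars), 2 were called lower, with a median of -0.08. Of the 10 that act outside it, 6 were, with a median of -0.18. No test of that difference was run.

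Among the genes read around the cytosolic synthetases, only mitochondrial synthetases were called. None of 6 further genes of the cytosolic machinery (Farsa and Farsb for phenylalanine, Tarsl2, and the scaffold genes Aimp1, Aimp2 and Eef1e1) passed the test, with changes from -0.11 to 0.04 and an unadjusted p under 0.05 for 0 of them. DESeq2 called 0 of the 6. Of 17 mitochondrial synthetases 4 were lower (Aars2, Lars2, Mars2 and Vars2) and 0 higher, with a median of -0.11. Over all tested genes 9.54% were called lower. Vars2 stood at 47.3 and 41.3 CPM in wild type and at 32.1 and 34.7 CPM in the others (-0.41 ± 0.091), and Mars2 changed by -0.31 ± 0.079. Lars2, also called, was set by wild-type library 2, with 389.996 CPM there against 68.8, 66.9 and 64.2 CPM elsewhere, and without that library its change was -0.08. Without cKO-labelled library 2 Mars2 changed by -0.26 (adjusted p = 0.0501 by edgeR). With leucine set aside, both synthetases were called lower for alanine and valine, while for cysteine, isoleucine, serine and tyrosine only the cytosolic one was called and for methionine only the mitochondrial one. The cytosolic calls for alanine and valine (Aars and Vars) were lost after removal of the GC trend. The split above depends on the threshold for a call, and the differences between compartments were not tested.

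**Figure D4:**
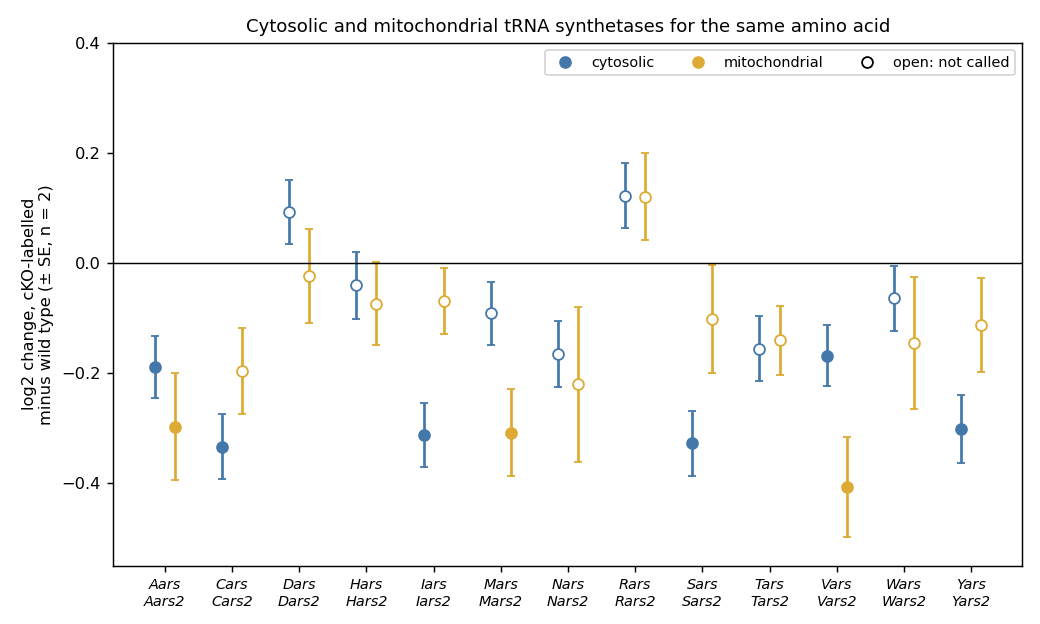
Log2 change (± SE, n = 2 libraries per genotype) of the cytosolic (blue) and mitochondrial (yellow) tRNA synthetase for the same amino acid, cKO-labelled minus wild type; Lars and Lars2 are left out of the plot because wild-type library 2 sets Lars2. Filled points were called lower by edgeR, such as Vars2 at -0.41, and open points were not called.

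Levels per exonic length spanned a wide range in wild type. Shmt2 (mean 279 FPKM) and Phgdh (273 FPKM) were highest, and their 2 wild-type values overlapped, so that their order is not resolved. Gars (176 FPKM), Psat1 (140.01 FPKM) and Vars (138 FPKM) followed, of which the last 2 overlapped. The synthetases lay between 26.5 and 176 FPKM. Pycr1 at 19.9 FPKM and Gpt2 at 16.1 FPKM were the lowest of the genes called, and Cebpb (4.38 FPKM), Vldlr (0.270 FPKM) and Cbs (0.205 FPKM) lay below all others. Of 37 neighbouring pairs in this order, 12 overlapped between their wild-type libraries. In the cKO-labelled libraries Shmt2 and Phgdh remained the highest, at 209 and 197 FPKM, while Pck2 went from 45.6 to 30.8 FPKM and Pycr1 from 19.9 to 9.94 FPKM.

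**Figure D5:**
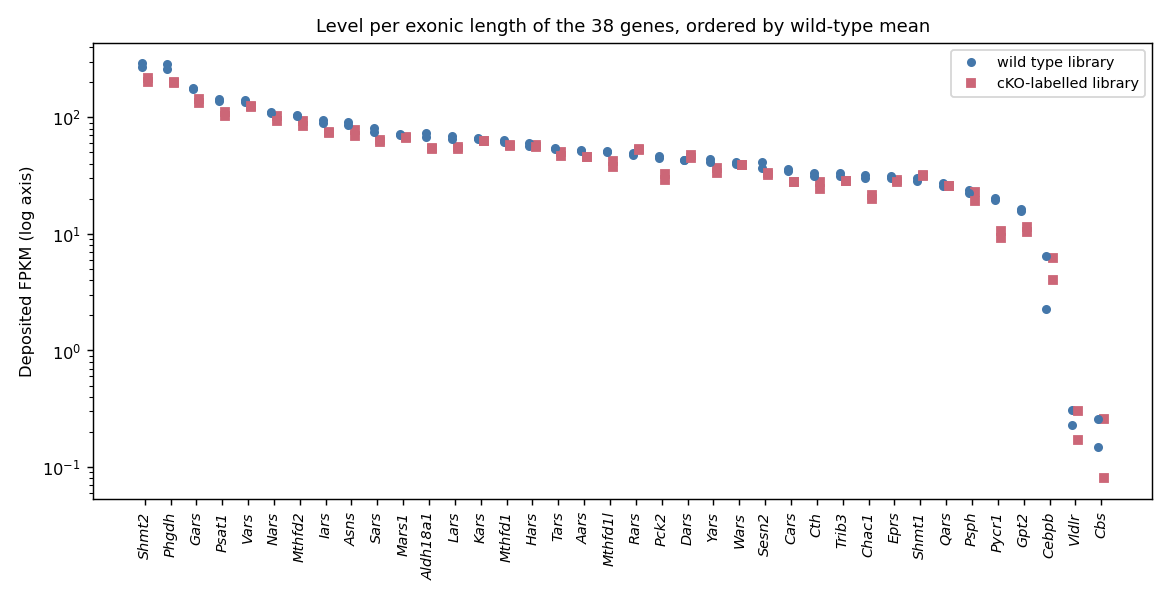
Deposited FPKM of the 38 genes in each library on a log axis, ordered by the wild-type mean (circles wild type, squares cKO-labelled, 2 libraries each). Shmt2 and Phgdh are highest at 279 and 273 FPKM in wild type, and Vldlr and Cbs are lowest, both under 1 FPKM.

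The members also varied between libraries of 1 genotype. Of the 22 genes called lower, 21 were higher in wild-type library 1 than in wild-type library 2, and 17 were higher in cKO-labelled library 1 than in cKO-labelled library 2. Over all 38 genes these counts were 30 and 29. The like shares over all tested genes were not computed, so this order may not be particular to the 38. Rows of ribosomal RNA took 0.525% of the counts of wild-type library 2, against 0.0947% to 0.125% in the other 3, and leaving those rows out changed no call among the 38. Without cKO-labelled library 2, 17 of the 38 were called lower, and without wild-type library 1, 18 were. In all 11 alternative settings 15 genes were called lower. These were Phgdh, Psat1, Shmt2, Mthfd1l, Pck2, Gpt2, Aldh18a1, Pycr1, Chac1, Cars, Gars, Iars, Lars, Sars and Yars.

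Markers of other cells were read beside these results. Dendritic cell markers, of which 3 of 5 tested were higher (Flt3, Zbtb46 and Itgax), summed to 58.5 and 57.4 CPM in wild type and to 108 and 114 CPM in the cKO-labelled pair. Clec9a had 2 counts at most in any library and Siglech 14. Tested markers of macrophages, monocytes and neutrophils summed to 18.1 and 15.6 CPM against 16.9 and 17.5 CPM, with Ly6g at 0 in every library, and 1 of 5, S100a9, was called higher, a call lost without wild-type library 2 (1.20, adjusted p = 0.235 by edgeR) or cKO-labelled library 2 (1.21, adjusted p = 0.284 by edgeR). Of 7 T and NK cell markers only Cd3g passed the filter, at 1.33 CPM at most, and it was not called. Erythroid and megakaryocyte markers summed to 1.45 and 2.44 CPM against 3.72 and 4.87 CPM. Of 3 tested, Hbb-bs and Hba-a1 were called higher, and Hba-a1 lost its call without any 1 library (adjusted p from 0.143 to 0.275 by edgeR). Of the B-cell markers, Cd79a, Cd79b and Pax5 were called lower and Ms4a1 was not called. Cd79a stood at 964 and 908 CPM in wild type and at 729.97 and 744 CPM in the others. The part of these markers in the changes of the 38 genes was not tested.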

How the data were processed

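RNA-seq of 4 libraries was analysed. Per the submitters' processing notes, the tools named were bcl2fastq 2.17.1.14, cutadapt 1.9.1, HISAT2 2.0.1 and HTSeq 0.6.1, with genome build GRCm38. The authors deposited raw counts per gene, which were used for all tests, and FPKM, which was used for levels between genes. The deposited FPKM values follow from the counts and exonic lengths to within 0.005. The members and all gene lists were chosen with earlier results of these data known, and values are given for the 3 called genes of each related list with the smallest adjusted p, and for Adar, Atf4 and Myc. Other genes behind small counts are named after their values were seen.

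Genes were kept with edgeR's filterByExpr (minimum count 10, minimum total 15), scaled by TMM and tested with the quasi-likelihood test of edgeR 4.0.16 in R 4.3.3, with Benjamini-Hochberg adjustment over 14180 genes. One count corresponds to 0.0508 to 0.0577 CPM. Alternatives were RLE size factors, no filter, DESeq2 1.42.0, leaving out each library, a replicate block, removal of each library's trend on exon GC content with and without the block, and leaving out ribosomal RNA rows. The scripts were tested on simulated data. Promoter windows came from RefSeq. Some genes of the related lists are not reported here.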

Additional observations from a re-analysis of the deposited data

How the results depend on the processing

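None of the results recomputed changed direction past its threshold. Of all tested genes, 1353 were called lower by edgeR and 795 by DESeq2, and 1727 and 1235 higher; the cause was not tested. Among the 38 genes the count called lower was 22 and ranged from 17 to 23 when 1 library was left out, and the count called higher ranged from 0 to 1 (Cebpb, without wild-type library 2). Their median log2 change was -0.24 and ranged from -0.32 to -0.19 without 1 library. The count called lower was 24 with a replicate block, 21 with the GC trend removed, with or without the block, and 22 with RLE size factors or without ribosomal RNA rows. The labels do not say that replicate numbers pair the libraries, and same-numbered libraries did not deviate together (correlation -0.029), so the block result is given here only; it gave 1904 genes higher and 1594 lower. With 2 libraries per genotype, changes of genes with few reads, such as Cbs and Vldlr, were not detectable at this depth.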

Other observations

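Transcripts of MYC and mTOR signalling were read as values beside the 38 genes. Of 8 tested, 4 were lower (Rptor, Mtor, Myc and Tsc2) and 1, Max, was higher, with a median of -0.11. Rptor, the scaffold of mTORC1, stood at 58.3 and 66.2 CPM in wild type and at 46.6 and 49.6 CPM in the cKO-labelled libraries (-0.37 ± 0.077, adjusted p = 0.000958 by edgeR). Mtor changed by -0.26 ± 0.066 (adjusted p = 0.00579 by edgeR), a call lost without wild-type library 2 (-0.22, adjusted p = 0.0603 by edgeR) or cKO-labelled library 1 (-0.18, adjusted p = 0.0820 by edgeR). Myc stood at 297 and 282 CPM in wild type and at 259 and 245 CPM in the others (-0.20 ± 0.059, adjusted p = 0.0163 by edgeR). It was not called without wild-type library 1 (-0.17), without cKO-labelled library 2 (-0.16) or after removal of the GC trend (-0.15).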
